A study of Mus musculus with 9 samples.

Results

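The plasminogen activator system was described by 5 genes, Plat, Plau, Plaur, Serpine2 and Serpinb2, which were taken by symbol from the 55450 genes listed for each library. Plat, Plau, Plaur and Serpine2 passed the filter of at least 1 FPKM in at least 3 of 9 libraries, as did 12441 genes in all, while Serpinb2 stayed below 1 FPKM in every library. RNA came from mouse articular chondrocytes in primary culture, the cell type that lays down the cartilage of joints, kept at 3% oxygen in medium with 10% serum. The 3 groups of 3 libraries were bleomycin followed by ST045849, bleomycin followed by DMSO, and vehicle (PBS) followed by DMSO. Every culture was first given hyaluronidase (4 U/mL, 4 h). Bleomycin, a glycopeptide that breaks DNA, was given at 50 µg/mL for 24 h. ST045849, an inhibitor of the O-GlcNAc transferase that attaches N-acetylglucosamine to nuclear and cytoplasmic proteins, was then given at 20 µM for 5 days. None of the 9 libraries had the inhibitor without bleomycin, so an effect of the inhibitor alone cannot be told from one on the bleomycin response. The labels do not tie the 3 libraries of each group to animals or cultures, so p-values measure the spread between these samples, which may be technical.

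Plasminogen is an inactive precursor that is cut to plasmin, a broad serine protease, by 2 activators, tissue plasminogen activator (encoded by Plat) and urokinase (Plau). Urokinase acts largely at the cell surface, where it is held by a lipid-anchored receptor (Plaur), and plasmin there degrades fibrin and matrix proteins and activates precursors of matrix metalloproteinases. Serpins close the system by trapping the proteases. Serpine2 encodes protease nexin-1, a secreted inhibitor of thrombin, urokinase and plasmin that binds glycosaminoglycans, and Serpinb2 encodes a largely intracellular inhibitor of both activators. In cartilage, plasminogen activators are studied as a route to matrix breakdown, and several members of the system are counted among the factors that senescent cells secrete.

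The members lie at separate places in the genome (GRCm38, GENCODE vM21). Plat (ENSMUSG00000031538.6) lies on chromosome 8 from 22757727 to 22782844 on the plus strand, Plau (ENSMUSG00000021822.3) on chromosome 14 from 20836660 to 20843385 on the plus strand, and Plaur (ENSMUSG00000046223.10) on chromosome 7 from 24462484 to 24475968 on the plus strand. Serpine2 (ENSMUSG00000026249.10) lies on chromosome 1 from 79794197 to 79861180 on the minus strand, and Serpinb2 (ENSMUSG00000062345.10) on the same chromosome from 107511423 to 107535478 on the plus strand. No exon of Plat, Plau, Plaur or Serpine2 overlaps one of another gene. Serpinb2 shares 12.4% of its exon sequence with its neighbour Serpinb10 on the same strand, which stood at or below 0.0368 FPKM in every library.

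RefSeq promoter windows of 250 bases before to 50 bases after the start (GRCm38.p6) were matched for 3 of the 5 members, Plaur, Serpine2 and Serpinb2, and these 3 are shown for the make-up of the receptor and serpin promoters. Each sequence is printed 5′ to 3′ on the gene's own strand, as far as it lies outside GENCODE exons, with motif matches in capitals.
Plaur (chr7:24462233-24462482, plus strand): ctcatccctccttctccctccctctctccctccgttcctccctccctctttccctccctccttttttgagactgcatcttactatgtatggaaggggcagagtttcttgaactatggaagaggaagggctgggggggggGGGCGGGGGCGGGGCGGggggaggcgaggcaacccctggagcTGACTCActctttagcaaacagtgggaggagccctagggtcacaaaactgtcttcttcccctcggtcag
Serpine2 (chr1:79858697-79858915, minus strand): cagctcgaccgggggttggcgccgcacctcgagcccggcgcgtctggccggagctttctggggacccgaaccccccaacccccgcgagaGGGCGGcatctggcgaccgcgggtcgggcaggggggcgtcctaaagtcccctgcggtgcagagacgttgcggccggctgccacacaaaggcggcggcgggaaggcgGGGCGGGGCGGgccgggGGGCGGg
Serpinb2 (chr1:107511173-107511422, plus strand): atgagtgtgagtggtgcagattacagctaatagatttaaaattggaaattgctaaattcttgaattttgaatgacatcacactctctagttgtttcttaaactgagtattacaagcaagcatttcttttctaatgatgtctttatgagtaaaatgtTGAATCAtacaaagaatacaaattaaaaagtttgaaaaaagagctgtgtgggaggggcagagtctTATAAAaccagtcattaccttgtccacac
Both strands were searched for AP-1 (TGANTCA), CRE (TGACGTCA), the GC box (GGGCGG), the E-box (CACGTG) and the TATA box (TATAAA), with overlapping matches each counted. The Plaur window held 1 AP-1 match, beginning 69 bases before the start, and 3 GC boxes. The Serpine2 window held 6 GC boxes, of which the 4 outside exons are shown, and none of the other motifs. The Serpinb2 window held 1 AP-1 match, 94 bases before the start, and 1 TATA box match, 29 bases before the start. RefSeq gives Serpinb2 another start, from which the same matches lie at positions -181 and -116. The GC content was 59.3% in the Plaur window, 77.7% in that of Serpine2 and 35.3% in that of Serpinb2, against a median of 52.7% over 32817 promoter windows. Of those windows 7.81% held the AP-1 letters, 35.6% a GC box and 13.6% a TATA box. A match describes the letters of this window and not a site in use. The RefSeq start of Serpine2 lies downstream of its outermost GENCODE start, so its window falls within the span of the gene given above.

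The cells carried the markers of their label, and other cell types were looked for because endothelial and myeloid cells are known sources of several members. The 10 chondrocyte markers were all tested and summed to 16532 to 23585 FPKM with bleomycin plus ST045849, 19710 to 27787 FPKM with bleomycin and 26451 to 36398 FPKM with vehicle. Of these markers 3 (Acan, Matn3 and Col11a1) fell with both agents against vehicle and 0 were called with bleomycin against vehicle (limma). None of 8 endothelial markers passed the filter, and they summed to 0.495 to 0.795 FPKM with bleomycin plus ST045849, 0.505 to 0.58 FPKM with bleomycin and 0.047 to 0.145 FPKM with vehicle. Of 10 macrophage markers 3 (Lyz2, Cd68 and Cd14) were tested and all rose in both comparisons with vehicle. The list summed to 11.9 to 18.0 FPKM with bleomycin plus ST045849, 10.9 to 12.6 FPKM with bleomycin and 3.05 to 5.75 FPKM with vehicle. Among its untested genes, C1qb, C1qc and Tyrobp were at 0 in each of the 9 libraries. Csf1r was above 0 in every library, at no more than 0.153 FPKM. C1qa, Adgre1 and Ptprc were above 0 only in some treated libraries, at no more than 0.144 FPKM. None of 6 neutrophil markers passed the filter, and they summed to at most 0.493 FPKM in any library. Of 8 fibroblast or synovial markers 2 (Thy1 and Dcn) rose with bleomycin against vehicle, and the list summed to 2361 to 4230 FPKM with bleomycin plus ST045849, 4072 to 5373 FPKM with bleomycin and 2435 to 2956 FPKM with vehicle. None of these 5 marker calls for bleomycin against vehicle was kept in all 9 fits that left out a library. With both agents against vehicle Thy1 rose and Dcn did not pass, and 7 markers were called in all, of which Acan and Lyz2 were kept in all 9 fits. The sums of the endothelial, macrophage and neutrophil lists were higher in all treated than in all vehicle libraries, as were Plat and Serpine2. The fibroblast or synovial sum was higher in all bleomycin than in all vehicle libraries. With bleomycin plus ST045849 against bleomycin all 8 fibroblast or synovial markers were lower (median log2 change -0.58, with 0 called by limma), as was Plat. Of the 10 chondrocyte markers 7 were lower and 3 higher in that comparison (median -0.50, with 0 called by limma). Serpine2 was nearly level there (-0.01). The part of these marker lists in the results was not tested. In such bulk RNA, more cells of a type and more RNA per cell cannot be told apart.

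Serpine2 was by far the most abundant of the 5 transcripts in every library, and the order of the others differed between groups. With bleomycin plus ST045849 the order of levels per length was Serpine2 (397 ± 76.6 FPKM; mean ± SD, n = 3 here and below), Plaur (25.5 ± 9.5 FPKM), Plat (14.7 ± 5.07 FPKM) and Plau (7.98 ± 2.55 FPKM), where Plaur and Plat overlapped. In bleomycin libraries Plat (23.2 ± 3.29 FPKM) came next after Serpine2 (396 ± 29.3 FPKM), and the following pair, Plaur (14.8 ± 3.89 FPKM) and Plau (10.4 ± 2.55 FPKM), overlapped each other. In vehicle libraries levels ran from Serpine2 (120.1 ± 15.5 FPKM) through Plaur (13.2 ± 1.84 FPKM) and Plau (7.33 ± 0.876 FPKM) to Plat (5.21 ± 0.405 FPKM), with no overlap between neighbours. Serpinb2 was the lowest member in every library. Serpine2 lay above 98.2 to 99.2% of tested genes in the bleomycin plus ST045849 libraries, above 99.0 to 99.2% in bleomycin libraries and above 96.6 to 96.7% in vehicle libraries.

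**Figure D1:**
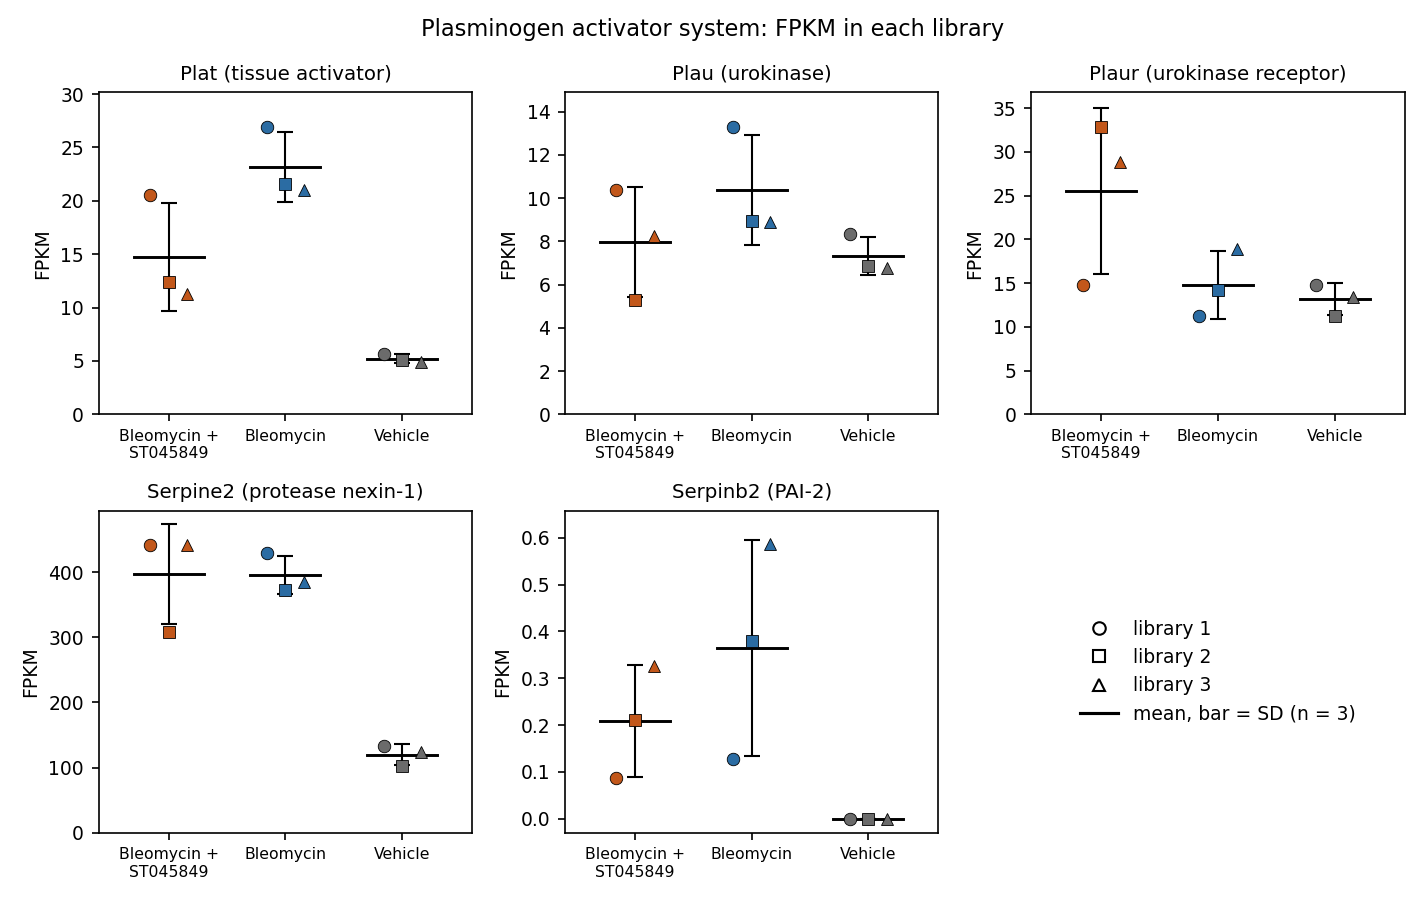
FPKM of each gene (vertical axes, separate scales) in the 3 libraries of each group, with the mean as a line and the SD as a bar. Plat and Serpine2 lie higher in all bleomycin and all bleomycin plus ST045849 libraries than in any vehicle library, and Serpinb2 is listed at 0 in the vehicle libraries.

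Bleomycin was compared with vehicle to show the response to the drug without the inhibitor. Plat, the tissue activator, and Serpine2, the inhibitor, both rose, by 3.88-fold and 3.29-fold on the log2(FPKM + 1) scale, while Plau and Plaur did not pass the test. The fit was limma over all 9 libraries and all 12441 tested genes, with a call at a Benjamini-Hochberg adjusted p under 0.05. It called 2 of the 4 tested members, both higher, where 4.20% of all tested genes were called higher and 0.675% lower. The log2(FPKM + 1) scale understates changes of genes with low values.

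Plat stood at 27.0, 21.5 and 21.0 FPKM in bleomycin libraries 1, 2 and 3 and at 5.67, 5.04 and 4.91 FPKM in vehicle libraries 1, 2 and 3. Every bleomycin library was thus more than 3 times as high as any vehicle library. The log2 change was 1.96 ± 0.23 (SE; 95% interval 1.45 to 2.46; limma adjusted p = 0.00241). Serpine2 stood at 429, 373 and 385 FPKM in bleomycin libraries and at 133, 103 and 124 FPKM in vehicle libraries. Its groups also lay apart, with little spread inside either. The log2 change was 1.72 ± 0.22 (95% interval 1.22 to 2.21; limma adjusted p = 0.00283). Both calls were kept in all 23 alternative fits, with adjusted p up to 0.0163 for Plat and 0.0195 for Serpine2. The median change of all tested genes was 0.10, so Plat lay 1.86 and Serpine2 1.62 above it. With median-of-ratios scaling that median was -0.05.

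The urokinase gene and its receptor gave smaller differences. Plau stood at 13.3, 8.93 and 8.88 FPKM in bleomycin libraries and at 8.34, 6.87 and 6.78 FPKM in vehicle libraries. The bleomycin libraries were all higher than the vehicle libraries, as in 21.4% of all tested genes, but 2 of them only just. The log2 change was 0.43 ± 0.25 (95% interval -0.11 to 0.98; limma adjusted p = 0.426). Plaur stood at 11.2, 14.2 and 18.9 FPKM in bleomycin libraries and at 14.8, 11.2 and 13.5 FPKM in vehicle libraries, and the groups overlapped. Its log2 change was 0.14 ± 0.29 (95% interval -0.51 to 0.79; limma adjusted p = 0.882), and it turned to -0.03 with median-of-ratios scaling and -0.05 without bleomycin library 3.

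Serpinb2 was listed at 0.127, 0.379 and 0.588 FPKM in bleomycin libraries and at 0 in all 3 vehicle libraries. These values are far below those of the other members, and the depth behind them is not given in the files. Without the filter, among 30298 genes, the difference of log2(FPKM + 1) was 0.43 ± 0.12, with a limma adjusted p of 0.139. No fold is given against a group listed at 0.

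**Figure D2:**
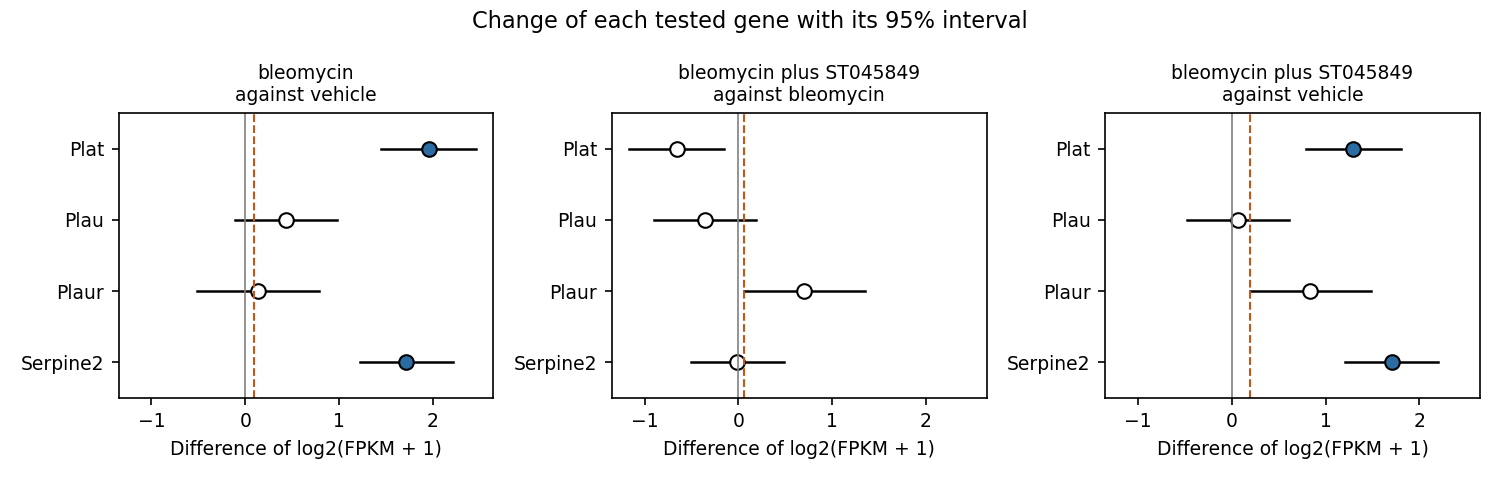
Difference of log2(FPKM + 1) for the 4 tested members in each comparison, with the 95% interval of limma as a line. Filled points have an adjusted p under 0.05, and the dashed line marks the median of all tested genes. Plat and Serpine2 are filled in both comparisons with vehicle, and no point is filled for bleomycin plus ST045849 against bleomycin.

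ST045849 after bleomycin was compared with bleomycin alone to show whether inhibition of O-GlcNAc transferase changed these levels. Plat was lower and Plaur higher with the inhibitor, and Serpine2 was at nearly the same level, but no member passed in the fit of all 9 libraries. None of the 12441 tested genes was called there (0%, with 22.5% at an unadjusted p under 0.05). The bleomycin libraries are shared with the comparison against vehicle.

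Plat stood at 20.5, 12.4 and 11.2 FPKM in bleomycin plus ST045849 libraries 1, 2 and 3 and at 27.0, 21.5 and 21.0 FPKM in bleomycin libraries 1, 2 and 3. All inhibitor libraries were lower than all bleomycin libraries, as in 8.67% of tested genes, though library 1 with the inhibitor came close to bleomycin library 3. The log2 change was -0.66 ± 0.23 (95% interval -1.17 to -0.15; limma adjusted p = 0.203). Plaur stood at 14.8, 32.9 and 28.8 FPKM with bleomycin plus ST045849 and at 11.2, 14.2 and 18.9 FPKM with bleomycin. Libraries 2 and 3 with the inhibitor were higher than every bleomycin library and library 1 was not. The log2 change was 0.70 ± 0.29 (95% interval 0.05 to 1.35; limma adjusted p = 0.211). Libraries 2 and 3 with the inhibitor also had the largest FPKM sums, 483953 and 468012, against 340303 to 406644 in the other 7 libraries. With every library scaled to the same sum (TPM), the log2 change was -0.96 for Plat and 0.45 for Plaur. Neither passed (limma adjusted p = 0.2011 and 0.2785), and the cause of the larger sums was not tested.

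Whether these differences passed depended on how the libraries were matched and on 1 library. Libraries of equal number went together in these 2 groups, with correlations of their deviations from the group means of 0.466, 0.481 and 0.5. Unequal numbers correlated at -0.32 to -0.172 in these groups. Deviations within a group cancel out, so positive values for equal numbers force negative ones among the unequal numbers. Between bleomycin plus ST045849 and vehicle, however, unequal numbers reached 0.567 (library 1 with vehicle library 2) and 0.568 (library 2 with vehicle library 1). The pairing was taken from these data and is not given by the labels. With the pair as a block in a limma fit of the 2 groups, Plat fell (adjusted p = 0.0353) and Plaur rose (adjusted p = 0.0371), but that fit called 19.3% of all tested genes. With the gene length trend of each library also removed, the changes were -0.53 for Plat and 0.44 for Plaur and neither passed (adjusted p = 0.0905 and 0.159), and the fit called 1.37% of genes. Without bleomycin plus ST045849 library 1, Plat changed by -0.91 (limma adjusted p = 0.0255) and Plaur by 1.04 (adjusted p = 0.0270), in a fit that called 7.18% of genes lower and 10.7% higher. The within-pair changes of Plat were -0.38, -0.75 and -0.85 for numbers 1, 2 and 3, and those of Plaur were 0.37, 1.16 and 0.58. The direction was the same in all 3 pairs for both genes, which for Plat follows from groups that did not overlap.

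Serpine2 stood at 442, 309 and 442 FPKM with bleomycin plus ST045849 and at 429, 373 and 385 FPKM with bleomycin. The groups overlapped and the means differed by less than the spread between libraries. Its log2 change was -0.01 ± 0.22 (95% interval -0.50 to 0.48; limma adjusted p = 0.981), and under other scalings the value ran from -0.52 with quantile normalization to 0.25 with the length trend removed. Plau stood at 10.4, 5.31 and 8.25 FPKM with bleomycin plus ST045849 and at 13.3, 8.93 and 8.88 FPKM with bleomycin. Its groups overlapped, with a log2 change of -0.36 ± 0.25 (95% interval -0.90 to 0.18; limma adjusted p = 0.360). It was lower in all 3 pairs, by log2 changes of -0.33, -0.65 and -0.10, and did not pass in the paired fit (limma adjusted p = 0.184). Serpinb2 was listed at 0.0870, 0.211 and 0.326 FPKM with bleomycin plus ST045849 and at 0.127, 0.379 and 0.588 FPKM with bleomycin. In each numbered pair the inhibitor library was lower, and the groups overlapped (unfiltered limma fit, adjusted p = 0.554).

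Cells given both agents were also compared with vehicle. Plat and Serpine2 remained higher than in vehicle, by 2.45-fold and 3.26-fold on the log2(FPKM + 1) scale, as 2 of the 4 tested members, where 8.11% of all genes were called higher and 1.74% lower. The lowest bleomycin plus ST045849 library had 11.2 FPKM of Plat, against 5.67 FPKM in the highest vehicle library, and 309 FPKM of Serpine2, against 133 FPKM in the highest vehicle library. Groups lay apart in this direction in 21.0% of all tested genes. The log2 change was 1.30 ± 0.23 for Plat (limma adjusted p = 0.00781) and 1.71 ± 0.22 for Serpine2 (limma adjusted p = 0.00220). With equal numbers as a block in a fit of the 2 groups, neither passed (limma adjusted p = 0.0597 and 0.0515). That fit called 1.60% of all tested genes. Plaur differed by 0.84 ± 0.29 (95% interval 0.19 to 1.49; limma adjusted p = 0.0878), where bleomycin plus ST045849 library 1 (14.8 FPKM) lay within the vehicle range of 11.2 to 14.8 FPKM. Without that library the Plaur change was 1.18 (limma adjusted p = 0.0115), in a fit that called 18.4% of genes higher. With array weights it was 0.93 (limma adjusted p = 0.0357), in a fit that called 2767 of the 12441 tested genes in either direction. As TPM the Plaur change was 0.61 (limma adjusted p = 0.157). Plau differed by 0.07 ± 0.25 (95% interval -0.47 to 0.61; limma adjusted p = 0.862), and its direction turned under all 3 scalings tried, to between -0.17 and -0.03. The median change of all tested genes here was 0.19, and -0.01 with median-of-ratios scaling.

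Since FPKM is scaled by length, levels of different members were set against each other within a library. Plat made up 66.4, 70.0 and 57.6% of the summed FPKM of the activators Plat and Plau with bleomycin plus ST045849, 66.9, 70.7 and 70.3% with bleomycin, and 40.5, 42.3 and 42.0% with vehicle. By FPKM, Plau was thus higher than Plat in every vehicle library and Plat higher than Plau in every treated library. That order of 2 genes rests on the lengths used for FPKM, which are not stated. The difference was 27.7 percentage points for bleomycin against vehicle, 23.1 points for bleomycin plus ST045849 against vehicle and -4.64 points for bleomycin plus ST045849 against bleomycin. Serpine2 exceeded Plat 21.5-, 25.0- and 39.4-fold with bleomycin plus ST045849, 15.9-, 17.3- and 18.3-fold with bleomycin, and 23.5-, 20.4- and 25.3-fold with vehicle. The bleomycin libraries had the lowest ratios and overlapped neither other group. The log2 ratio differed by -0.42 for bleomycin against vehicle and by 0.69 for bleomycin plus ST045849 against bleomycin. Groups that lay apart had a two-sided exact permutation p of 0.10, the smallest that 3 against 3 libraries can give, and 0.15 after Benjamini-Hochberg adjustment over the 6 tests. The ratio is taken between mRNA levels and says nothing of protein or enzyme activity.

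**Figure D3:**
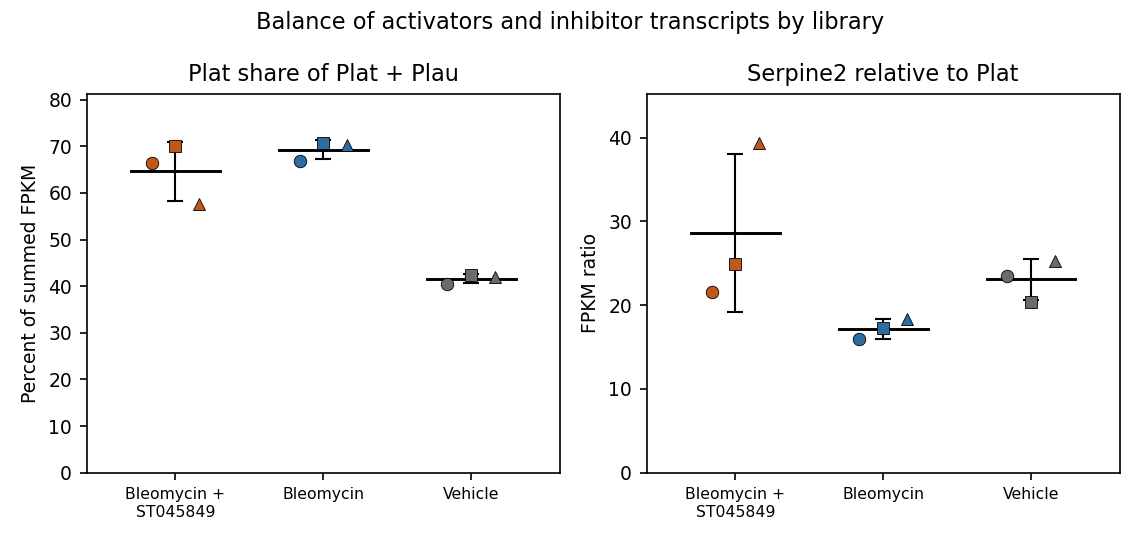
Share of Plat in the summed FPKM of Plat and Plau in percent, and the FPKM ratio of Serpine2 to Plat, in each library, with the mean and SD of 3 libraries. The share lies between 40.5 and 42.3% in vehicle libraries and at or above 57.6% in all others, and the ratio is lowest in bleomycin libraries.

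Around the 5 members, 6 lists of the same system held 61 genes, of which 43 were tested. The lists were chosen with earlier results of these data known. With bleomycin against vehicle 11 of the 43 rose and 0 fell, where 4.20% of all tested genes rose and 0.675% fell. With both agents against vehicle 13 rose and 0 fell, where 8.11% of all tested genes rose and 1.74% fell. The vehicle libraries are shared by both comparisons. Plasminogen itself (Plg), the substrate of both activators, was listed at no more than 0.0356 FPKM in any library. None of its 5 tested receptors passed in any comparison in the fit of 9 libraries, the most abundant being the enolase gene Eno1 (808 ± 203 FPKM with bleomycin plus ST045849, 601 ± 31.6 FPKM with bleomycin and 809 ± 207 FPKM with vehicle). The median change of the receptors was -0.02 for bleomycin against vehicle, against 0.10 for all genes.

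Among 5 tested serpins that inhibit serine proteases, 2 rose with bleomycin and all 5 were higher (median change 0.74). The complement inhibitor gene Serping1 rose by 1.86 ± 0.44 and Serpinb9, an inhibitor of granzyme B, by 0.79 ± 0.19 (limma adjusted p = 0.0370 and 0.0368). With both agents against vehicle Serping1, Serpinb9 and Serpinb6a rose, and Serpinb6a, an intracellular serpin, did so by 1.19 ± 0.26 (limma adjusted p = 0.0175). Neither of 2 serpins without protease inhibition, Serpinf1 and the collagen chaperone gene Serpinh1, passed in any comparison in the fit of 9 libraries. Serpinh1 stood at 510 ± 88.9 FPKM with bleomycin plus ST045849, 428 ± 88.3 FPKM with bleomycin and 729 ± 191 FPKM with vehicle.

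Of 11 tested clearance receptors and partners of the urokinase receptor, 1 rose with bleomycin. This was Lrpap1, the chaperone of LRP1 (0.75 ± 0.18, limma adjusted p = 0.0423), while the list's median was 0.33. With both agents against vehicle Lrpap1 and the integrin gene Itgb5 rose, by 0.87 ± 0.18 and 0.84 ± 0.24 (limma adjusted p = 0.0167 and 0.0485). Of 12 tested substrates of plasmin or the activators 5 rose with bleomycin and all 12 were higher (median 0.90). Pdgfc, whose growth factor product is released by tissue plasminogen activator, rose by 1.90 ± 0.18, and the related Pdgfd, whose product urokinase releases, by 1.49 ± 0.32 (limma adjusted p = 0.000739 and 0.0275). The metalloproteinase genes Mmp3, Mmp13 and Mmp14 rose by 3.67, 2.43 and 0.72 (limma adjusted p = 0.00384, 0.0221 and 0.0478). With both agents against vehicle Mmp3, Mmp13, Pdgfc, Tgfb1 (0.79) and Bdnf (0.92) rose, where the limma adjusted p ran from 0.000992 for Pdgfc to 0.0496 for Bdnf.

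Of 8 tested genes of coagulation at the cell surface 3 rose with bleomycin. Thbd, which encodes the thrombin receptor thrombomodulin, stood at 77.9, 65.7 and 87.3 FPKM with bleomycin plus ST045849, at 69.0, 96.3 and 81.6 FPKM with bleomycin and at 17.9, 17.3 and 19.0 FPKM with vehicle. All treated libraries were more than 3 times as high as any vehicle library (2.12 ± 0.20 for bleomycin against vehicle, limma adjusted p = 0.000735). The thrombin receptor gene F2r rose by 1.48 ± 0.25 and Procr, the protein C receptor, by 0.99 ± 0.19 (limma adjusted p = 0.00766 and 0.0167). The same 3 genes rose with both agents against vehicle. With bleomycin plus ST045849 against bleomycin 0 of the 43 list genes passed in the limma fit of 9 libraries, and 26 were lower. The substrates had a median change of -0.45 there and the clearance receptors one of -0.37, against 0.06 for all genes. The plasminogen receptors had a median change of 0.38, with all 5 higher. As TPM, 37 of the 43 were lower and 6 higher, and the medians were -0.79 for the substrates, -0.66 for the clearance receptors and 0.12 for the plasminogen receptors, against -0.19 for all genes. In the paired fit of 2 groups 11 of the 43 fell and 2 rose, where 19.3% of all tested genes were called in either direction. Those that fell included 6 substrates (Mmp3, Hgf, Tgfb2, Ltbp1, Fn1 and Pdgfd) and 4 clearance receptors and partners (Lrp1, Sorl1, Igf2r and Itgav). The remaining gene that fell was F13a1, and the 2 that rose were the plasminogen receptor gene S100a10 and Serpinf1. With the length trend also removed, the paired fit called only 1.37% of all genes, and list calls under it are not given. Without bleomycin plus ST045849 library 1, 7 fell and 1 rose (Serpinf1), where 7.18% of all genes fell and 10.7% rose.

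Some of these list calls depended on which libraries entered the fit. For bleomycin against vehicle, fits without 1 bleomycin or vehicle library called 184 to 334 of all tested genes, against 607 with all 9 libraries. Of the 11 rises with bleomycin, those of Mmp3, Pdgfc, F2r and Thbd were kept whichever library was left out. The calls of Serping1, Serpinb9, Lrpap1, Mmp13, Mmp14, Pdgfd and Procr were each lost without bleomycin library 1 or 3 or vehicle library 2 or 3, with a highest adjusted p of 0.192 (Mmp14). All of these but Pdgfd were also lost without bleomycin library 2, and Serpinb9, Lrpap1, Mmp14 and Pdgfd without vehicle library 1, Mmp14 also without bleomycin plus ST045849 library 3. Of the calls with both agents against vehicle, those of Mmp3, Pdgfc, Thbd and Procr were kept in all 9 such fits and the others were lost without vehicle library 2 or 3. Some of these were lost without other libraries too: Serping1, Serpinb6a, Itgb5, Bdnf and Tgfb1 without bleomycin plus ST045849 library 2, Serping1, Serpinb6a, Serpinb9, Mmp13, Bdnf and F2r without its library 3, and Serping1 without its library 1. Itgb5, Bdnf and Tgfb1 were lost without any bleomycin library, Serping1 without bleomycin library 3 and Bdnf without vehicle library 1. At least 1 of 3 other scalings also ended the calls of Serping1, Serpinb9, Lrpap1 and Mmp14 for bleomycin against vehicle. For both agents against vehicle the same was true of Serping1, Serpinb9, Lrpap1, Itgb5, Mmp13, Bdnf, Tgfb1 and F2r.

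**Figure D4:**
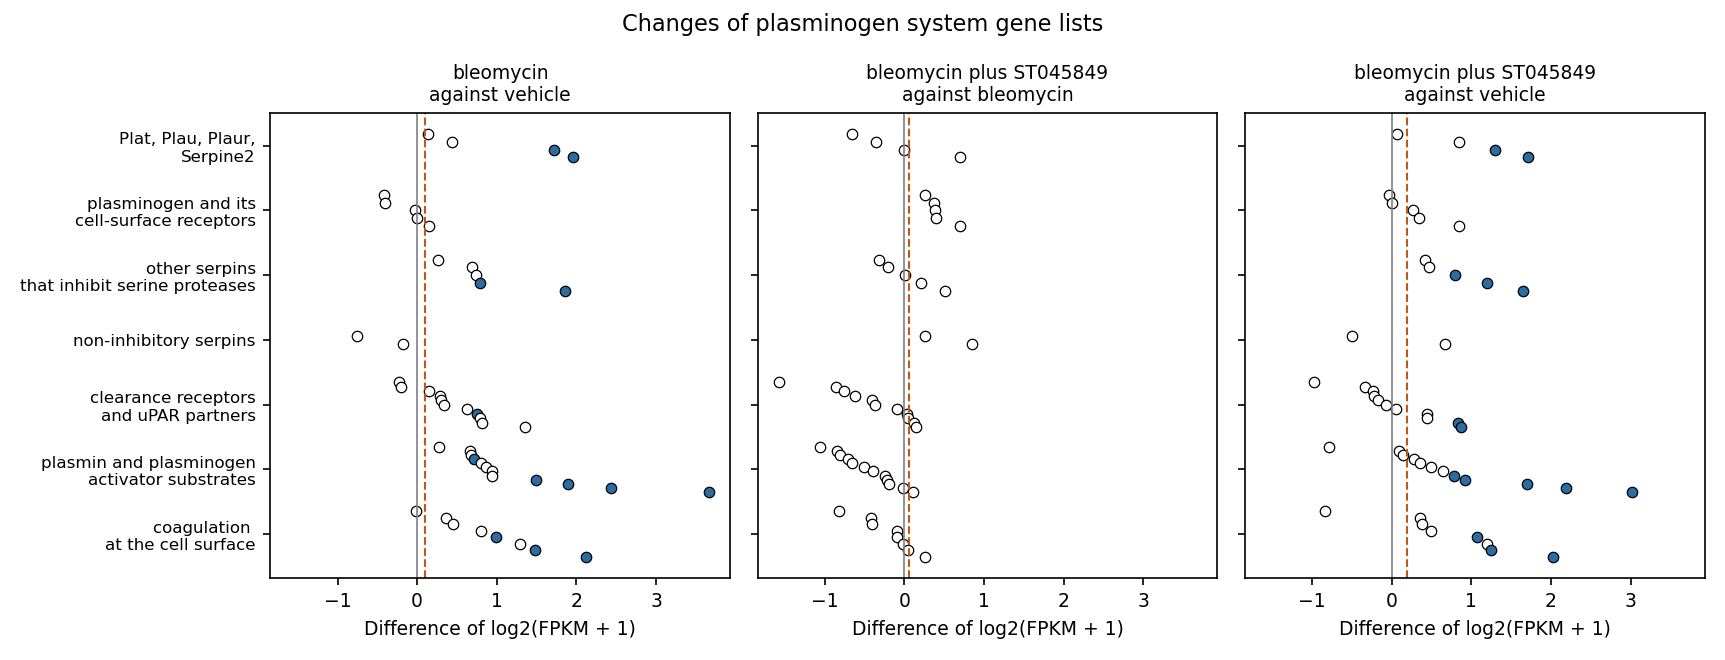
Difference of log2(FPKM + 1) of each tested gene of the 4 members and the 6 lists, in 3 comparisons. Filled points have a limma adjusted p under 0.05 and the dashed line is the median of all tested genes. With bleomycin against vehicle 11 list genes are filled, all to the right, and with bleomycin plus ST045849 against bleomycin none is.

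For each tested member the 3 genes with the nearest profile over the 9 libraries were found by the root mean square difference of log2(FPKM + 1) after each gene's mean was removed. These libraries share the groups, so any gene with a like response lies near. Nearest to Plat were Fap, the fibroblast activation protein and itself a serine protease (0.16), Dmpk (0.20) and Dkk3, a secreted modulator of WNT signalling (0.21), against a standard deviation of Plat of 0.90. Nearest to Serpine2 were Smpdl3a (0.14), the pantetheinase gene Vnn1 (0.15) and Adm, the adrenomedullin precursor (0.17). Nearest to Plaur were the proteasome gene Psmd8 (0.09), 1110006O24Rik (0.10) and Unc119 (0.10), and nearest to Plau were the sheddase gene Adam17, Map3k8 and Ifit2 (0.10, 0.11 and 0.11). Plat and Serpine2 differed from each other by 0.35, which placed Serpine2 42nd among the 12440 other genes for Plat. Plat and Plaur differed by 0.95, which placed Plaur at 8732.

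**Figure D5:**
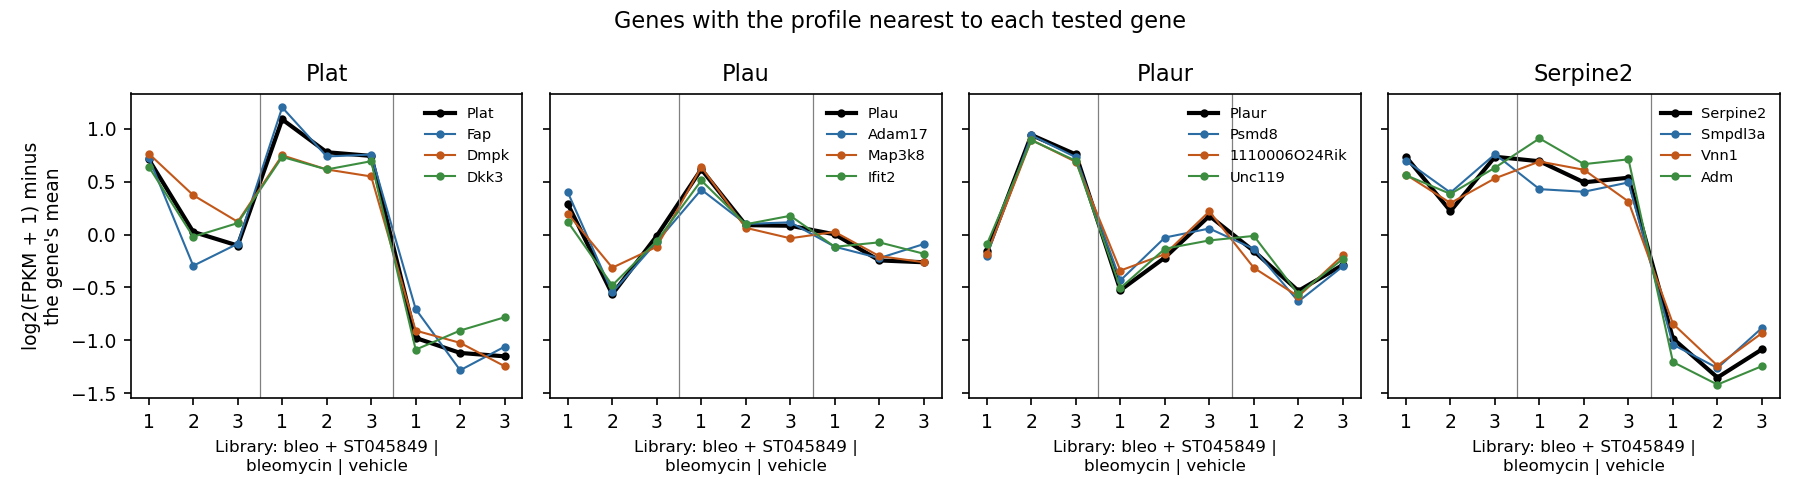
Level of each tested member (black) and of its 3 nearest genes as log2(FPKM + 1) minus the gene's own mean, across the 9 libraries, which run from bleomycin plus ST045849 through bleomycin to vehicle. The Plat and Serpine2 profiles lie low in the vehicle libraries, and that of Plaur is highest in bleomycin plus ST045849 libraries 2 and 3.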

How the data were processed

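RNA was measured in 9 libraries from a strand-specific mRNA kit, per the labels' protocols. Trimmomatic, STAR and GRCm38 are named in the submitters' processing notes, without versions. The deposited values are FPKM, scaled by the authors for exon length and library size. Their program, annotation and denominator are not stated in the sources used. FPKM sums were 340303 to 483953 per library. The most frequent ratio between low values placed the depth of the libraries at 0.874 to 1.005 times that of vehicle library 1, and the number of reads behind each value is not given.

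Genes were kept that reached 1 FPKM in 3 or more libraries, and log2(FPKM + 1) was fitted for all 9 libraries with limma 3.58.1 in R 4.3.3 (6 residual and 4.95 prior degrees of freedom, trended variances). P-values were two-sided and adjusted by Benjamini-Hochberg over 12441 genes. Lengths and coordinates came from GENCODE vM21. The members and lists were chosen with earlier results of these data known. All 5 members are named, and of each list every gene called in any comparison, otherwise the one with the highest mean. Other list genes named (Plg, Serpinf1 and those called in the paired fit) were chosen after their values were seen. Some list genes are not reported here and are in no list count. Alternatives were 14 other settings and leaving out each of 9 libraries.

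Replicate numbers were checked for pairing by correlating deviations from group means. Between bleomycin plus ST045849 and bleomycin, equal numbers correlated at 0.466, 0.481 and 0.5, so that comparison is also given with the pair as a block. The pairing comes from the data, and unequal numbers of bleomycin plus ST045849 and vehicle libraries reached 0.567 and 0.568. Between bleomycin and vehicle, equal numbers correlated at -0.071, -0.026 and 0.546, and between bleomycin plus ST045849 and vehicle at -0.519, -0.279 and 0.424.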

Additional observations from a re-analysis of the deposited data

How the results depend on the processing

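Of the 276 values of the 4 tested members under 23 alternatives, 255 kept their direction and their side of the threshold, 13 reversed, 6 passed only under the alternative and 2 were lost. For bleomycin against vehicle both member calls were kept throughout, with 1.80 to 2.13 for Plat and 1.54 to 1.87 for Serpine2. For bleomycin plus ST045849 against bleomycin 0 members were called, 2 with a replicate block in a fit of 2 groups, and 0 to 2 when a library was left out (2 without bleomycin plus ST045849 library 1). For bleomycin plus ST045849 against vehicle 2 were called, 3 with array weights (Plaur added), and 2 to 3 when a library was left out. The fit with array weights called 2767 of the 12441 tested genes there. With the replicate block of 2 groups 0 were called (limma adjusted p = 0.0597 for Plat and 0.0515 for Serpine2). That fit called 1.60% of genes. Between these groups equal numbers correlated at -0.519, -0.279 and 0.424, and the labels do not say whether the numbers pair these samples. The block changed no other member call.

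Reversed values were all of small changes, and the cause was not tested. Plau in bleomycin plus ST045849 against vehicle (0.07) gave -0.14 with median-of-ratios scaling, -0.031 with quantile normalization, -0.17 as TPM and -0.35 with the length trend removed, with or without the replicate block, and -0.12 to 0.31 when a library was left out. Plaur in bleomycin against vehicle (0.14) gave -0.029 with median-of-ratios scaling and -0.047 to 0.31 when a library was left out. Serpine2 in bleomycin plus ST045849 against bleomycin (-0.01) gave 0.057 with array weights, 0.25 with the length trend removed, with or without the replicate block, and -0.10 to 0.16 when a library was left out.

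The number of genes called moved more. For bleomycin against vehicle (607) it was 284 at a mean of at least 5 FPKM, 1024 for 2 groups alone, 1938 with array weights, 1048 with length removal and replicate block, and 184 to 829 when a library was left out. For bleomycin plus ST045849 against bleomycin (0) it was 1 with no filter, 2 at a mean of at least 5 FPKM, with quantile normalization, with array weights or with length removal, 2403 with the replicate block of 2 groups, 170 with length removal and block, and 0 to 2225 when a library was left out. For bleomycin plus ST045849 against vehicle (1225) it was 651 with no filter, 660 at a mean of at least 5 FPKM, 710 as TPM, 199 with the replicate block of 2 groups, 621 for 2 groups alone, 2767 with array weights, 782 with length removal, 239 with length removal and block, and 286 to 3060 when a library was left out. The reads behind the values of Serpinb2, which stayed below 1 FPKM, are not given.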
